A study of Homo sapiens with 8 samples.

Results

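Chromosome 13 carried 1273 of the 48662 regions of H3K27ac found on chromosomes 1 to 22 and X when MDA-MB-231 cells with and without ARID1A were profiled. The regions came from 923 peaks of the control list (of 39797) and 1131 peaks of the knockout list (of 42552). Peaks of both lists that overlapped by at least 1 bp were merged, and a region was called shared, control-only or knockout-only by the lists that contributed to it. Shared regions numbered 748 on chromosome 13, control-only regions 154 and knockout-only regions 371. Members were chosen by their chromosome and sorted by the presence of a peak in each list, so the class counts, and the fold and pileup of genotype-only regions, are descriptions without a test.

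MDA-MB-231 is an established triple-negative breast cancer line, and the 8 libraries formed 4 groups of 2: control (NC) input, knockout (KO) input, control immunoprecipitate and knockout immunoprecipitate. The genotype labels were control and ARID1A knockout, and they named no other allele or treatment, while the clonality of the knockout cells and the origin of replicates (separate cultures or not) are not given in the sources used here. The characteristics named an anti-H3K27ac antibody while the extraction protocol named an antibody to H3K4me3, and the name H3K27ac used here rests on the former and on the titles. Each genotype had 1 deposited peak list, with no replicate error, so every comparison is between these lists, none could be tested for genotype, and intervals (exact Clopper-Pearson, 95%) cover counting error only.

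Acetylation of histone H3 at lysine 27 is laid down by the coactivators p300 and CBP at active promoters and enhancers, where it neutralises a positive charge and is read by bromodomain proteins. ARID1A belongs to the BAF form of the SWI/SNF remodeller and binds DNA within that complex, which moves nucleosomes at enhancers and helps keep them open to transcription factors. Chromosome 13 is a gene-poor acrocentric chromosome with long stretches of neuronal cell-adhesion genes set in gene deserts, and it also holds tumour suppressor and cell-cycle genes such as RB1 and BRCA2. The labelled cell type was checked at gene starts of other chromosomes: VIM, CD44, AXL, ZEB1, SPARC and CAV1 (6 of 8 mesenchymal breast cancer genes) had a shared region there. MSN had none and the start of FOSL1 was not in the table used. Over all protein-coding starts of other chromosomes, 62.3% had a shared region, so lists this short do not identify the cell type. The hormone receptor genes ESR1 and PGR had no region at the start, whereas GATA3 and FOXA1, also listed as luminal, had a shared one, and the starts of the other 4 luminal genes were not in the table.

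A few starts carried genotype-only acetylation, and their promoters show how unlike these sequences were. Each sequence runs 5′ to 3′ on the strand of the gene, from 250 bases before to 50 after the start, and comes from RefSeq on GRCh38.p14. Capitals mark matches on either strand to any of 5 motifs. The AP-1 site was searched with the letters TGANTCA. For the GC box, the second motif, the letters were GGGCGG. The box named CCAAT was searched by those letters. A TATA box was counted where the window read TATAAA. The last motif, the E-box, was searched with the palindrome CACGTG. Over 34961 promoters of the same length, 7.68% held the AP-1 letters, 45.0% the GC box, 34.6% the CCAAT box, 11.5% the TATA box and 7.27% the E-box, and a match is only a match of letters. Shown first are 4 protein-coding starts with a knockout-only region, at RGCC (a cell-cycle regulator), TRPC4 (a calcium-permeable channel), TNFSF13B (the B-cell survival cytokine BAFF) and GPR183 (an oxysterol receptor that guides lymphocytes).
RGCC, chr13:41457300-41457599, plus strand: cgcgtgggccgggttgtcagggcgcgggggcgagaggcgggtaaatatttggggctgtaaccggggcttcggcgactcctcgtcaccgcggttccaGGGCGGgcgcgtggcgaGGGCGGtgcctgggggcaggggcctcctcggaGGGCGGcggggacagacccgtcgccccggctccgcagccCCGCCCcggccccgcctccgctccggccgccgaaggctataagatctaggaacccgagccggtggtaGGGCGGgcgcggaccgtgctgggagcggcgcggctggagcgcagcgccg
TRPC4, chr13:37869723-37870022, minus strand: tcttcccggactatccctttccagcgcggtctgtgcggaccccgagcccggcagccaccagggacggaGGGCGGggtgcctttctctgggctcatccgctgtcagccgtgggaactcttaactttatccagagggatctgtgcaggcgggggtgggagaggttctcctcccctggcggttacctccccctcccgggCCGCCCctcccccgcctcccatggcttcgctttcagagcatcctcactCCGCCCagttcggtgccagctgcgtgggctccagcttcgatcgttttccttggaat
TNFSF13B, chr13:108269379-108269678, plus strand: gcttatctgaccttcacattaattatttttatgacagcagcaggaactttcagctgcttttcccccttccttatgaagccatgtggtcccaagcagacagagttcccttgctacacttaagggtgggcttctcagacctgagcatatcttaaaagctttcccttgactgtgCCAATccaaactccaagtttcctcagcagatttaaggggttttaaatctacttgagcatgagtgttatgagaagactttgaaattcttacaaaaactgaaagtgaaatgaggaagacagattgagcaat
GPR183, chr13:99307350-99307649, minus strand: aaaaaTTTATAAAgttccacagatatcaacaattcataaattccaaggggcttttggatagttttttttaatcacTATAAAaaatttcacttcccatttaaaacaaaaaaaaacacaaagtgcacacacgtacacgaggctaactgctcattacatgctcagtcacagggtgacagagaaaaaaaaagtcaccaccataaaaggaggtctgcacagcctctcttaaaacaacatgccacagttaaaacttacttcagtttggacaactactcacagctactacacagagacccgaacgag
The RGCC window was 76.7% G and C with 5 GC-box matches, and the TRPC4 window was 65.3% with 3. The TNFSF13B window was 41.0% with a single CCAAT match and no CpG, and the GPR183 window was 36.7% with 3 TATA-box matches, of which the pair near its 5′ edge overlaps on opposite strands. CpG-rich and CpG-poor promoters were thus both among the knockout-only starts.

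For the control-only class the promoters of FREM2 (an extracellular matrix protein of epithelial basement membranes) and of the long non-coding RNA gene LINC00355 are shown, the latter because its region had the highest fold of the class at a start.
FREM2, chr13:38686827-38687126, plus strand: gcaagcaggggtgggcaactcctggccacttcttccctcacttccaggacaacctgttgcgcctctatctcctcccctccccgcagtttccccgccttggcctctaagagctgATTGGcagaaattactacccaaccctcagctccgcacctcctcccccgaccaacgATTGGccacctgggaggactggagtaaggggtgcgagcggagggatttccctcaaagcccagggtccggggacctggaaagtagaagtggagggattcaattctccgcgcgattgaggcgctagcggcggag
LINC00355, chr13:64075962-64076261, minus strand: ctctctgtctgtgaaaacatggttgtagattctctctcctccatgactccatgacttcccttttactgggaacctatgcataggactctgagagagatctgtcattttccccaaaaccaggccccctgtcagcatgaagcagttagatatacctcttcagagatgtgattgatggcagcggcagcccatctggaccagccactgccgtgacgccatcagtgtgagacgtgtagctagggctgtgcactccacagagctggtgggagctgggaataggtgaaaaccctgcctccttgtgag
FREM2 had 2 CCAAT-box matches in a window that was 61.0% G and C, and LINC00355 had no match to any of the 5 motifs at 52.0%. For contrast, LATS2 (a Hippo pathway kinase) and INTS6 (a subunit of the Integrator complex, which processes RNA at the polymerase) had shared regions among the 5 of highest fold in both lists.
LATS2, chr13:21061537-21061836, minus strand: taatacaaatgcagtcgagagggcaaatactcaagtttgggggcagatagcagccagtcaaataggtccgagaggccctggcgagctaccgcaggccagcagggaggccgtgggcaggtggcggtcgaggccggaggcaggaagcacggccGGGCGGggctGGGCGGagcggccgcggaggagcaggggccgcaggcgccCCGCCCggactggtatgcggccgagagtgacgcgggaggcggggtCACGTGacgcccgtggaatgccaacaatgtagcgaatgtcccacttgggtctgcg
INTS6, chr13:51452987-51453286, minus strand: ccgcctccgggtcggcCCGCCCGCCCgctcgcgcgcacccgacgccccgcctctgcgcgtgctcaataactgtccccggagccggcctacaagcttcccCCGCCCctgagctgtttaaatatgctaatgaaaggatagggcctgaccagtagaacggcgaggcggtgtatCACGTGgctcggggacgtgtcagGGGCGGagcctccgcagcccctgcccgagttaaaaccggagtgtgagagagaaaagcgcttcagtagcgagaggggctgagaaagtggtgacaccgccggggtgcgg
LATS2 had 3 GC-box matches and INTS6 had 4, some of which overlap, and each had 1 E-box match. Over all chromosome 13 starts, the median G and C content was 66.2% at the 262 with a shared region, 47.0% at the 15 with a knockout-only region, 58.3% at the 5 with a control-only region and 45.0% at the 431 with none.

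Chromosome 13 had more knockout-only and fewer control-only regions than the rest of the genome. Knockout-only regions made up 29.1% of its regions (26.7 to 31.7), where 19.6 percent of regions of all chromosomes were knockout-only. Control-only regions made up 12.1% (10.4 to 14.02), where 14.7 percent of all regions were control-only. On the other chromosomes together the shares were 19.3% and 14.8%. Of the 23 chromosomes, chromosome 13 ranked 1 by its knockout-only share and 23 by its control-only share. The next in knockout-only share were chromosomes 21 (25.9%), 4 (25.2%) and 18 (25.1%), and chromosome 21 also had the next lowest control-only share (12.9%). Seen from the lists, 83.3% of its control peaks (80.8 to 85.7) overlapped a knockout peak, and 67.2% of its knockout peaks (64.4 to 69.9) overlapped a control peak. The matching shares of other chromosomes are not given here. The knockout list was the longer one over all chromosomes too, with 42552 peaks against 39797.

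Most of the additional knockout-only regions were weak peaks when strength was taken as fold. By other measures the knockout-only regions of chromosome 13 were not weaker than those elsewhere. Their median pileup (fragment coverage) was 18.7 against 16.0, and their median −log10 q was 4.30 against 3.72. Fold enrichment, the deposited ratio of a peak to its input-based background, is the authors' own value, and each knockout-only region was placed by its best peak. Regions with a fold under 3 were 13.3% of all chromosome 13 regions (11.5 to 15.3) and 8.34% of regions elsewhere. Those of fold 3 to 4 were 9.11% and 6.42%, and those from fold 4 to the knockout list's median of 5.35 were 5.26% and 3.08%. Above the median the shares were alike, at 1.49% (0.901 to 2.32) and 1.48%. The excess was not smaller under a limit on q, but that limit did not fall alike on both lists. With a −log10 q of at least 5 in both lists, 33.3% of chromosome 13 regions and 21.4% elsewhere were knockout-only. That excess was 11.9 percentage points, against 9.82 without the limit. Among chromosome 13 peaks of fold 2.5 to 3, the median −log10 q was 2.99 in the knockout list and 1.81 in the control list (2.51 and 1.91 elsewhere). The control-only share fell from 12.1% to 5.81% with the limit, and shared starts such as GJA3 became knockout-only. The excess under the limit is therefore not a separate check. Strong genotype-only regions were those with a best peak among the upper 50% of its list by fold and without any peak of the opposite list inside 1 kb. Chromosome 13 had 19 strong knockout-only regions, 1.49% of its regions against 1.48 percent of all regions, a share near the background. It had 9 strong control-only regions, 0.707% against 0.619 percent. By the strong knockout-only share, chromosome 13 ranked 11 of 23. The median fold was 3.08 over its 371 knockout-only regions (range 1.90 to 10.9) and 3.10 over its 154 control-only regions (2.34 to 13.1), and median widths were 756 and 640 bp against 2050 bp for shared regions.

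**Figure D1:**
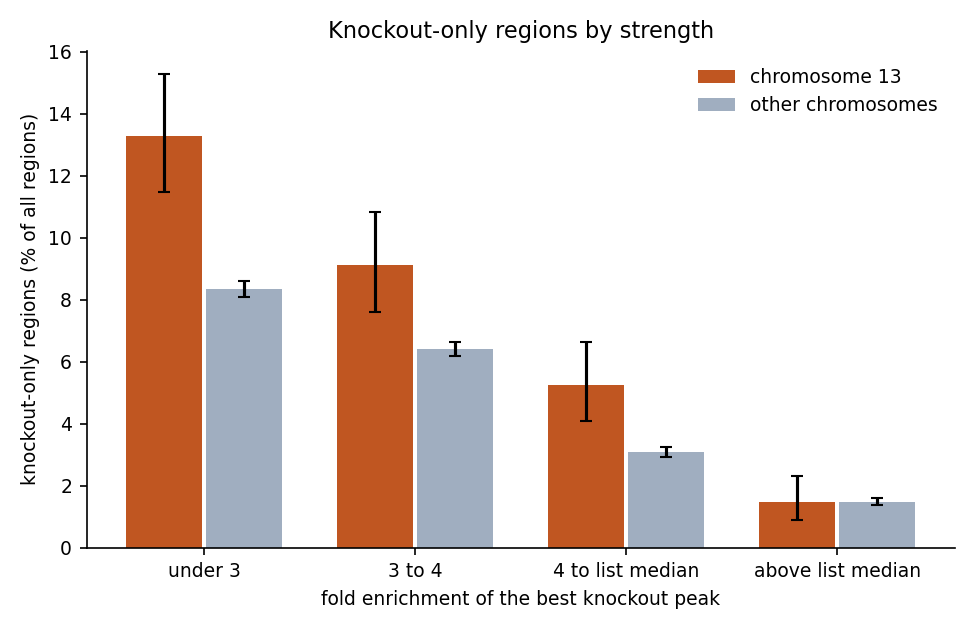
Knockout-only regions as a percentage of all merged regions (y axis) by the authors' fold enrichment of the best knockout peak (x axis), for chromosome 13 and for the other chromosomes. Bars are shares with exact 95% binomial intervals; chromosome 13 is above the others in the 3 lower bins (13.3% against 8.34% under fold 3) and level with them above the list median (1.49% against 1.48%).

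The background of the knockout list was also high on chromosome 13. Dividing a peak's pileup (its fragment coverage, as the authors gave it) by its fold gives an approximate background for that place. The median background of control peaks was 3.80 on chromosome 13 and 4.29 elsewhere, and that of knockout peaks was 6.85 and 5.82. The knockout to control ratio of these medians was therefore 1.81 on chromosome 13 and 1.36 elsewhere, a relative value of 1.33. Over the 748 shared regions, where both lists had a value at the same place, the median background ratio was 1.81 (interquartile range 1.55 to 2.18) against 1.35 over shared regions elsewhere. The median pileup ratio was 2.10 against 1.54. Chromosome 13 ranked 1 of 23 by both ratios, 18 by its control background and 3 by its knockout background. Chromosomes 21, 4 and 18, next in knockout-only share, had median background ratios of 1.37, 1.35 and 1.29 over shared regions. The part of this level in the knockout-only share was not tested.

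At equal fold, knockout peaks of chromosome 13 had lower q-values than those elsewhere. Background was pileup divided by fold, so at equal fold a higher background is a higher pileup, and this is not a separate observation. Among knockout peaks of fold 2.5 to 3, the median −log10 q was 2.99 on chromosome 13 and 2.51 on the other chromosomes, with median pileups of 16.9 and 13.9. Among control peaks of that fold the medians were 1.81 and 1.91, with pileups of 9.03 and 10.2. The chromosome thus lay above the others in the knockout list and slightly below them in the control list.

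Along the chromosome the background ratio was lower in the first 26 Mb than in the rest. The position 26 Mb was chosen after the background values had been seen. Below it, the 57 shared regions had a median background ratio of 1.25 and a pileup ratio of 1.47, close to the values of other chromosomes. Above it, the 691 shared regions had 1.86 and 2.15. The single megabases did not divide cleanly there: the background ratio was 1.51 at 19 to 20 Mb (9 shared regions), 1.12 at 24 to 25 Mb (7), 1.31 at 25 to 26 Mb (7), 1.72 at 26 to 27 Mb (9), 1.596 at 27 to 28 Mb (19) and 2.11 at 31 to 32 Mb. Below 26 Mb, 21 of 98 regions were knockout-only (21.4%, 13.8 to 30.9) and 20 control-only (20.4%). Above it, 350 of 1175 were knockout-only (29.8%, 27.2 to 32.5) and 134 control-only (11.4%). The intervals of both knockout-only shares overlap, and the counts below 26 Mb are few. Overlap of intervals is not a test of a difference, so the stretches are neither set apart nor shown to be alike. Knockout peaks of fold 2.5 to 3 had a median −log10 q of 2.18 below 26 Mb (6 peaks) and 3.02 above it.

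**Figure D2:**
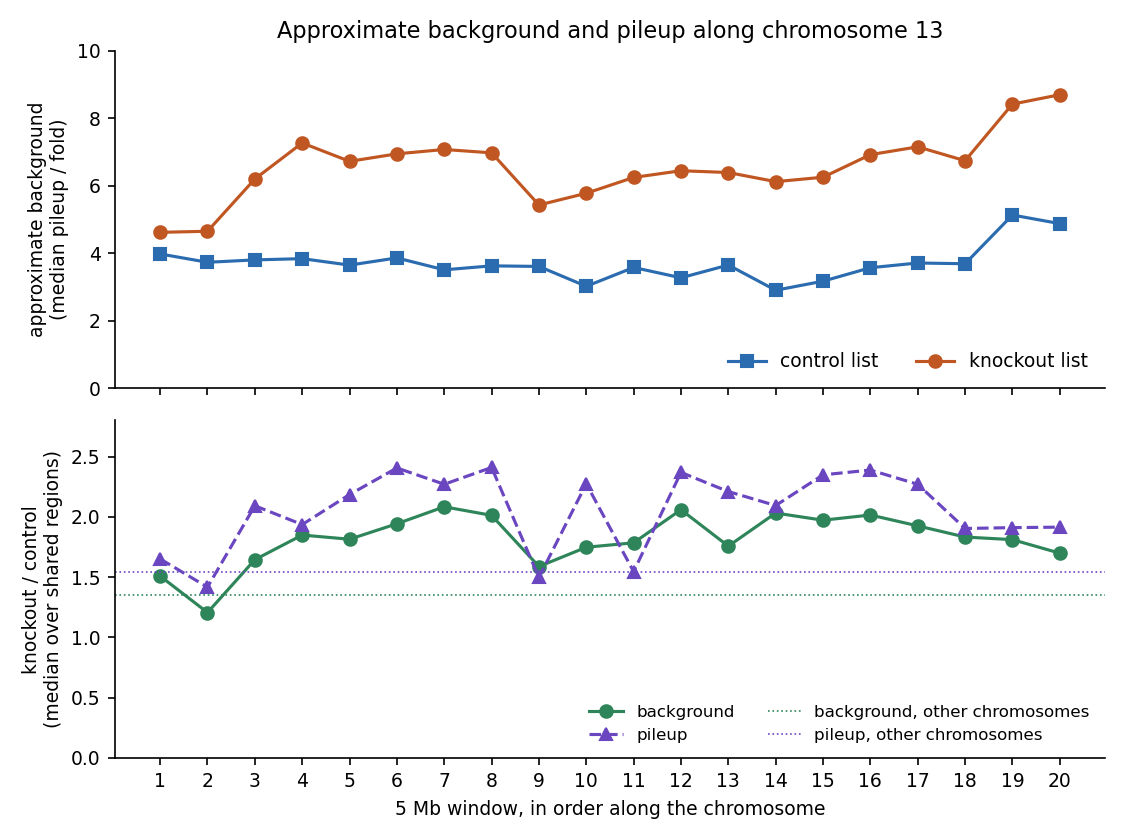
Upper panel, median approximate background of control and knockout peaks (pileup divided by fold, y axis) in each of the 20 windows of 5 Mb (x axis; window 1 is 15 to 20 Mb). Lower panel, median knockout to control ratio of background and pileup over shared regions, with dotted lines at the values of other chromosomes (1.35 and 1.54); the background ratio of window 2 (20 to 25 Mb) is 1.21 and those of the later windows are 1.59 to 2.08.

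In windows of 5 Mb, knockout-only regions outnumbered control-only regions in 18 of 20. Over all chromosomes knockout-only regions were also the more numerous, 9526 against 7155. No matching count of windows elsewhere is given here, so 18 of 20 is not shown to be particular to this chromosome. The exceptions were 20 to 25 Mb, with 8 knockout-only and 15 control-only regions of 64, and 65 to 70 Mb, with 6 and 9 of 28. The highest knockout-only shares were those of 85 to 90 Mb (18 of 42 regions, 42.9%), 80 to 85 Mb (14 of 33, 42.4%) and 105 to 110 Mb (31 of 74, 41.9%). The lowest were those of 20 to 25 Mb (12.5%), 110 to 115 Mb (20 of 116, 17.2%) and 25 to 30 Mb (16 of 80). The window with most regions was 40 to 45 Mb, which holds FOXO1, ELF1 and RGCC and had 120 regions, 42 of them knockout-only (35.0%) and 6 control-only. The fewest, 8, lay at 55 to 60 Mb, a gene desert around PCDH17. Windows of high knockout-only share thus included both gene-poor stretches, such as 80 to 90 Mb around the SLITRK genes with 6 protein-coding genes in all, and 40 to 45 Mb with 25.

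Covered length and region counts did not always go together along the chromosome. In the first window, 15 to 20 Mb, 7 of 19 regions were knockout-only, and 5 of these formed a single cluster near the centromere, while control peaks covered 27.5 kb and knockout peaks 29.0 kb. At 110 to 115 Mb, the gene-dense end with 40 protein-coding genes, 20 regions were knockout-only and 14 control-only, but control peaks covered 272 kb and knockout peaks 243 kb. At 40 to 45 Mb control peaks covered 150 kb and knockout peaks 208 kb. Both lists had their highest background at 105 to 115 Mb, where the control medians were 5.13 and 4.88 and the knockout medians 8.42 and 8.70. In the windows before, control medians ran from 2.90 to 3.98 and knockout medians from 4.62 to 7.27. The ratio there, 1.81 and 1.70, was not higher than in the middle of the chromosome.

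**Figure D3:**
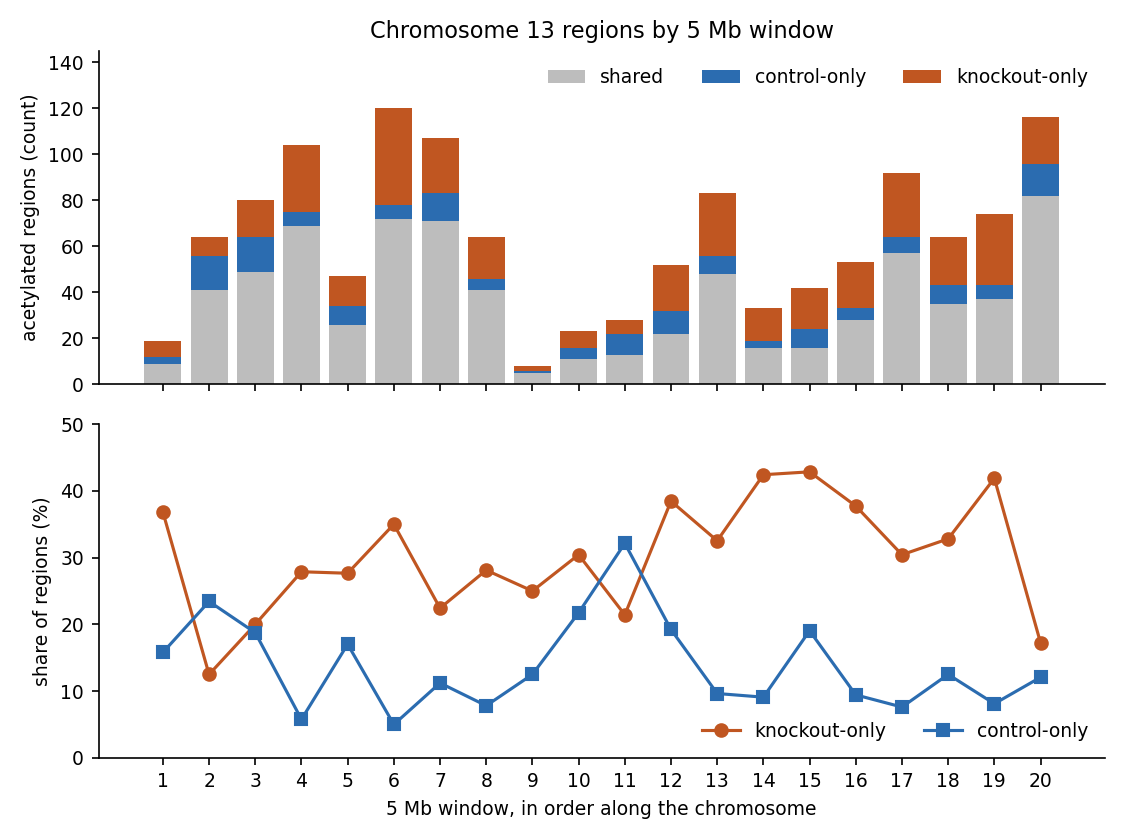
Upper panel, number of shared, control-only and knockout-only regions (stacked bars, y axis) in the 20 windows of 5 Mb along chromosome 13 (x axis; window 1 is 15 to 20 Mb). Lower panel, knockout-only and control-only share of regions in each window; control-only lies above knockout-only in windows 2 and 11 alone, with 23.4% against 12.5% and 32.1% against 21.4%.

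Window by window, the knockout-only share went with the background ratio on chromosome 13. Over its 18 windows with at least 20 regions and at least 5 shared regions, Pearson's r was 0.656 and Spearman's coefficient 0.572. Without the 20 to 25 Mb window, r over the remaining 17 was 0.498 and Spearman's coefficient 0.492. Over 533 windows of other chromosomes r was 0.241 and Spearman's coefficient 0.276. These are descriptions across windows of the same pair of lists, which share libraries and depth. Windows with a background ratio of at least 1.6, a limit set after the values were seen, also occurred elsewhere: 49 windows on chromosomes 1, 6, 7, 10, 11 and 19 held 22.2% knockout-only regions (21.0 to 23.4), against 19.0% in 484 windows under that ratio. The 17 chromosome 13 windows at or above it held 29.9% (27.3 to 32.7). The median ratio was 1.85 in these 17 windows and 1.78 in the 49, and the windows were not matched in any other way. What the background ratio contributes to the knockout-only share was not tested.

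**Figure D4:**
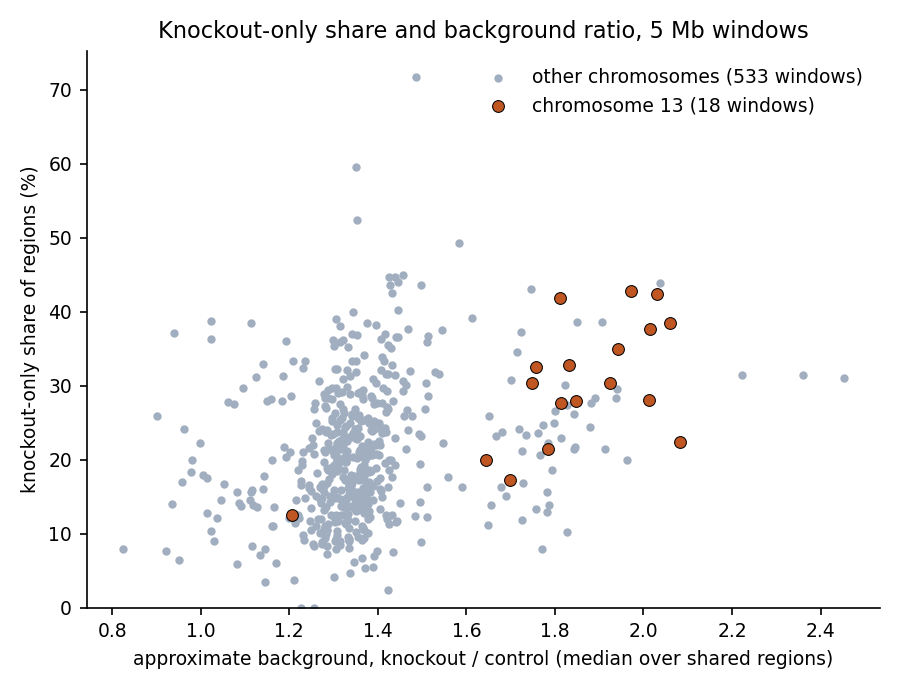
Knockout-only share of regions (y axis) against the median knockout to control background ratio of shared regions (x axis) in windows of 5 Mb with at least 20 regions and 5 shared regions. Each point is 1 window, 18 of chromosome 13 and 533 of the others; all chromosome 13 windows but one (1.21, 12.5%) lie at a ratio above 1.6, where 49 windows of other chromosomes also lie.

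Genotype-only acetylation of chromosome 13 lay mainly away from protein-coding starts. A region was placed at a start if it came within 1 kb of one, and the comparison used the 21 other chromosomes for which the start table had entries. Shared regions lay at a start in 21.5% of cases on chromosome 13 and 28.4% elsewhere. For knockout-only regions the values were 1.62% and 1.88%, and for control-only regions 1.30% and 2.96%. Between genes lay 58.0% of its knockout-only regions (52.7 to 63.0), against 48.0% elsewhere. Control-only regions lay between genes in 57.8% (49.6 to 65.7), against 35.8% elsewhere. Shared regions showed the same order, with 39.3% and 30.9%, so all 3 classes were more often between genes on this chromosome. The classes rest on whether peaks touch. Among shared regions made of 1 control and 1 knockout peak, the smallest overlap was 88 bp (chr13:25304856-25306129, fold 2.66 in control and 2.55 in knockout). The nearest genotype-only pair, chr13:73698652-73698941 (knockout-only, fold 2.79) and chr13:73699136-73699776 (control-only, 3.18), lay 195 bp apart in KLF12. Most genotype-only regions were not near misses in position: the median distance to a peak of the other list was 25.1 kb for knockout-only and 28.9 kb for control-only regions. Signal of the other list at the same place but under its cut-off cannot be seen in these lists.

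Of the 10 strongest knockout-only regions, 4 had folds of at least 10.01. The first was in the body of ABCC4, an efflux transporter of cyclic nucleotides and drugs (chr13:95098891-95102730, fold 10.9, pileup 76.7). The second lay between genes, 35.0 kb from MEDAG, a gene of adipocyte differentiation (chr13:30869692-30871234, fold 10.4, pileup 83.8), but with a control peak 1.74 kb away. The third was in DOCK9, an activator of the GTPase Cdc42 (chr13:99045202-99047713, fold 10.1, pileup 73.8). The next lay in the desert 774 kb from SLITRK1, a neuronal membrane protein (chr13:83100173-83103150, fold 10.01, pileup 59.2), with the nearest control peak 164 kb away. The other 6 went from 7.71 in the body of the heparan sulphate proteoglycan gene GPC5 (chr13:92751937-92753399) down to 6.04 near TBC1D4. In between came the start of the long non-coding RNA gene FAM230C (7.04), a region 206 kb from SLITRK6 (6.77), one 46.4 kb from GPC6, another glypican (6.44), and one in DNAJC3, an endoplasmic reticulum co-chaperone (6.10). FAM230C is one of several very similar gene copies, which makes the placement of reads at it uncertain.

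The strongest control-only regions were fewer, and the first ranked higher in its list than any knockout-only region of the chromosome did in the other. It lay in the desert 1026 kb from PCDH9, a protocadherin gene (chr13:68256129-68257676, fold 13.1, pileup 40.7), at percentile 89.2 of the control list. The top knockout-only region of ABCC4 was at percentile 76.6 of its list. The second was 7.77 kb wide, 12.2 kb from C13orf46 (chr13:113906567-113914332, fold 8.004, pileup 37.7), and a further one lay 21.7 kb from the same gene (fold 5.67, pileup 40.8). LINC00355 had one at its start (chr13:64074746-64076705, fold 6.69, pileup 18.9). A pair lay 14.7 and 8.42 kb from ATP12A, a proton-potassium pump gene (folds 5.77 and 5.25). The others lay near SUCLA2, a mitochondrial succinyl-CoA ligase gene (5.69), TNFRSF19, a receptor of the tumour necrosis factor family (5.43), and POMP, a proteasome assembly factor (5.30). Of these 9 regions, 4 lay below 30 Mb, in the stretch that includes the windows with the lowest background ratios.

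Knockout-only regions came in runs more often on chromosome 13 than elsewhere. A run is at least 3 consecutive regions of 1 genotype-only class, with no region of another class between them. There were 39 knockout-only runs holding 141 regions, 38.01% of the class, against 23.03% on other chromosomes, or 3.06 runs per 100 regions against 1.13. A higher share of a class by itself makes runs more frequent, and no allowance was made for that. The longest held 6 regions, while the longest elsewhere held 24. Control-only runs numbered 9, with 31 regions (20.1% of the class, 16.6% elsewhere). Of the knockout-only runs, 18 touched a protein-coding gene with at least 1 of their regions.

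Several runs lay inside long genes. In ABCC4, a run of 5 regions spanned 166 kb (chr13:95086837-95252638), with folds of 2.34 to 10.9, and the gene body held 8 knockout-only, 5 shared and no control-only regions in all. Its start region was shared, with folds of 10.5 in control and 10.2 in knockout and pileups of 46.9 and 92.3. ITGBL1, a secreted integrin-beta-like protein, held 7 knockout-only and 4 shared regions. They included a run of 4 over 17.4 kb (chr13:101512493-101529858, folds 2.43 to 5.30) and part of a run of 5 that ended in FGF14, which encodes a modulator of sodium channels (chr13:101649055-101876688, folds 2.63 to 4.70). The ITGBL1 start lay in a shared region of 10.01 kb (fold 6.96 in control, 10.1 in knockout). Both genes thus had starts acetylated in both lists and knockout-only regions in the body.

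TRPC4 had the run whose weakest region had the highest fold. Its 4 regions over 171 kb (chr13:37700492-37871661) had folds of 5.77, 5.11, 5.65 and 4.54 and pileups of 35.6, 33.8, 37.4 and 33.1, the last being at the start of the gene. The nearest control peak to the start region was 212 kb away. A shared region of the gene body had a fold of 5.83 in control and 10.8 in knockout, so the gene was not free of acetylation in control cells. TMEM272 had 4 regions, all knockout-only and including its start, with folds of 2.25 to 3.91.

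The other knockout-only runs that touched gene bodies had folds of at most 5.81, apart from the one in DOCK9. FNDC3A had a run of 5 over 34.9 kb (folds 2.43 to 4.28) and KLF12, a repressor of the Krüppel-like family, a run of 6 over 564 kb (2.36 to 4.88) that began in the gene and went on beyond it. A run of 6 over 160 kb (2.90 to 5.81) began in NALF1, an auxiliary subunit of the NALCN sodium leak channel, and went on beyond it. The gene body held 3 knockout-only regions in all, and the region of fold 5.81 lay outside it, between genes. ATP8A2, a phospholipid flippase, had a run of 5 over 144 kb (2.40 to 4.22). DOCK9 had a run of 3 with the fold of 10.1 given above, and UBAC2 one of 3 that spanned GPR18 and GPR183 (2.66 to 5.78). GPC5 had a run of 3 in its body (2.51 to 5.54) and another of 3 before it (2.35 to 2.93). Runs of 3 also touched MIPEP (a mitochondrial peptidase), CCDC122, COG3 (a Golgi tethering subunit), RUBCNL (an autophagy gene), CNMD and TDRD3. The CNMD run is nominal, since its 3 regions spanned 6318 kb of a desert with no other region between them.

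Between genes, runs marked several deserts. A run of 5 spanned 164 kb around the region of fold 10.01 near SLITRK1 (chr13:83059039-83222676). The cluster near the centromere had 5 regions over 104 kb (chr13:18193204-18297090, folds 3.82 to 7.04), among them the start of FAM230C. Runs of 4 lay nearest to TNFSF11, the cytokine RANKL (folds 2.97 to 4.05), FAM216B (3.15 to 4.10) and MZT1 (1.98 to 3.64). Runs of 3 had as nearest genes USP12, RXFP2, NBEA, POSTN, LOC647264, PCDH9, DACH1, KCTD12, EDNRB, SPRY2, SLITRK1, SLITRK6, LOC124900338, TMTC4 and DAOA. The nearest gene is named for position only.

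The 9 control-only runs lay near ATP12A (4 regions, folds 2.99 to 5.77), PDX1 (3), POMP (3), SUCLA2 (4, folds 2.91 to 5.69), PCDH9 (3), KLF5 (3), SLITRK6 (5 over 445 kb, folds 2.54 to 4.56), in PCCA (3) and at C13orf46 (3, folds 2.89 to 8.004). PCCA, a subunit of mitochondrial propionyl-CoA carboxylase, held 15 regions: 8 shared, 4 control-only and 3 knockout-only. The run at C13orf46 followed a shared region (chr13:113894799-113898782) with folds of 15.4 in control and 8.90 in knockout. SLITRK6 and PCDH9 had runs of both classes around them, in different places. Beside the 29.1% of all chromosome 13 regions that were knockout-only, the counts in other long genes were GPC6 (7 of 20, 12 shared), GPC5 (6 of 12), ATP8A2 (5 of 11), FNDC3A (5 of 12), FGF14 (4 of 6) and KLF12 (4 of 9).

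At gene starts, acetylation was shared or absent for nearly every gene. Of 338 protein-coding genes of the chromosome, 299 had a start in the table, and 183 of these (61.2%, with 62.3% on other chromosomes) had a shared region there. A knockout-only region lay at 6 of the 299 protein-coding starts, where 1.09 percent of protein-coding starts of all chromosomes had one. A control-only region lay at 2 of the 299, where 1.27 percent of those of all chromosomes had one. With 414 long non-coding RNA genes included, 15 of 713 starts were knockout-only, beside 1.43 percent over all chromosomes. Control-only starts were 5 of 713, beside 1.21 percent. The knockout-only share of starts was thus above that of all chromosomes and the control-only share below it, on few genes. The table gives 1 start per gene, so a gene without a region there, such as RB1 or ELF1, may have another start that is acetylated.

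The 6 knockout-only protein-coding starts had modest folds. TRPC4 had 4.54 (pileup 33.1) and RGCC 4.34 (20.3). The others were GPR183 (2.66, pileup 14.6), HS6ST3, a heparan sulphate 6-O-sulphotransferase (2.61, 11.2), TMEM272 (2.25, 16.8) and TNFSF13B (2.22, 13.1). The TNFSF13B and TMEM272 peaks lay at percentiles 0.766 and 1.08 of the knockout list, among its weakest. RGCC alone of these 6 had a control peak within 10 kb of its region, at 6.81 kb. With both lists held to a −log10 q of at least 5, RGCC and TRPC4 were still knockout-only, and the peaks of the other 4 lay under that limit.

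The control-only protein-coding starts were FREM2 (fold 3.74, pileup 13.6) and FRY, a microtubule-associated scaffold (2.89, 10.5), whose regions also lay at the starts of LINC00437 and FRY-AS1. Non-coding starts in the knockout-only class were, besides FAM230C, LINC02343 (3.72), LINC00547 (3.39), SMIM2 and SMIM2-IT1 (1 region, 4.29), FGF14-AS2 (3.45), NALF1-IT1 (3.09), LOC105370182 (2.51) and LOC124903160, which shares the TRPC4 region. LINC00355, at 6.69, had the highest fold of the control-only starts, and FAM230C that of the knockout-only starts.

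By function, cell-cycle and repair genes mostly had starts acetylated in both lists. Of 18 such genes with a start, 17 had a shared region there, beside 183 of all 299 protein-coding starts (61.2%), among them BRCA2, BORA, CDK8, CUL4A, ING1, LIG4 and TFDP1, and RB1 had none at its tabulated start. Their bodies held 29 regions, 25 shared and 4 knockout-only (a region touching 2 genes of a list is counted for each), at RB1, BRCA2, PDS5B and XPO4, with no control-only region. Over all chromosome 13 regions, 58.8% were shared, 29.1% knockout-only and 12.1% control-only, so 29 regions are few to set beside these shares. Ubiquitin, transport and metabolism genes had 13 of 15 starts shared, and 17 of the 58 regions in their bodies were knockout-only and 10 control-only. ABCC4 held 8 of the former and PCCA 4 of the latter.

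Tabulated starts of transcription factor genes were shared or without a region, at shares near those of all protein-coding genes of the chromosome (61.2% shared). A shared region lay at 11 of 18 starts, including KLF5 (8.54 kb wide), FOXO1 (5.27 kb), ZIC2 (5.91 kb), TSC22D1 and DACH1. CDX2, SOX1, SOX21, POU4F1, ZIC5, KLF12 and ELF1 had no region at the start, of which KLF12 and ELF1 had regions in the body. Their bodies held 41 regions: 27 shared, 4 control-only and 10 knockout-only. Of 22 growth factor and kinase signalling genes, 11 had a shared start, beside the same 61.2%. They included IRS2 (10.9 kb), SPRY2 (7.94 kb), STK24 (8.64 kb) and LATS2. TNFSF13B and GPR183 had a knockout-only start and FRY a control-only one. In their bodies 12 of 59 regions were control-only (20.3%, where 12.1% of all chromosome 13 regions were) and 9 knockout-only (15.3%, against 29.1%), with 2 control-only each in LATS2, GAS6, STK24, DOCK9 and DGKH.

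Adhesion, matrix and cytoskeleton genes held the most body regions, 114, with 70 shared, 34 knockout-only (29.8%) and 10 control-only. GPC6, ITGBL1 and GPC5 account for 20 of the 34, and MYO16 had a further 3. COL4A1 and COL4A2, the type IV collagen genes that share a promoter, had a shared region of 5.64 kb at both starts, with 5 shared regions touching COL4A1 and 10 touching COL4A2. Of all 299 protein-coding starts of the chromosome, 108 had no region. Neuronal and gene-desert genes had 11 of 15 tabulated starts without a region, and shared ones at PCDH9, SLITRK5, NALCN and NBEA. Their bodies held 30 shared, 5 control-only and 13 knockout-only regions, of which ATP8A2 held 5. For comparison, 29.1% of all chromosome 13 regions were knockout-only.

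The broadest and strongest acetylation of the chromosome was common to both genotypes. The widest shared region, 18.7 kb, lay at the start of LCP1, the actin-bundling protein L-plastin (chr13:46165887-46184569), with a fold of 5.41 in control and 10.4 in knockout. The next were 18.5 kb at the start of DLEU1 (folds 7.45 and 8.41), 15.9 kb at GTF2F2 and KCTD4 (4.58 and 5.88), 15.1 kb at RASA3, a Ras GTPase-activating protein (12.4 and 20.5), and 13.6 kb at 130 kb from COL4A1 (10.2 and 8.51). In the control list the highest folds of shared regions were those of SPART, a gene of lipid droplet turnover (29.1), TUBGCP3, a gamma-tubulin complex subunit (25.4), CCDC122 and LACC1 (1 region, 25.1), LATS2 (23.5) and INTS6 (23.4). In the knockout list they were those of B3GLCT, a glucosyltransferase (47.6), DLEU2 (42.9), INTS6 (37.4), CCDC122 and LACC1 (33.7) and LATS2 (33.6). Fold is relative to each list's own background, so ranks within a list are given and not a difference. Of the microRNA hairpins on the chromosome, MIR3665 (chr13:77698012-77698116) and MIR8073 (chr13:110340958-110341029) lay inside acetylated regions, both shared.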

How the data were processed

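Immunoprecipitates and inputs of both genotypes had been sequenced, 2 libraries per group. The submitters' processing notes name Bowtie2 2.3.5.1, MACS2 2.2.6 and the build hg38. Neither the options and library depth nor any pooling of replicates is given in the sources used here. In each deposited list, per the file headers, a peak has a position and width, a pileup (a coverage signal), a −log10 p-value (not used), a fold enrichment (a ratio) and a −log10 q-value, the lowest being 1.01 in the control and 1.00 in the knockout list. These are the authors' values, and fold was used only within a list. Nothing in the lists gives an error between replicates.

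Peaks on chromosomes 1 to 22 and X were merged at an overlap of at least 1 bp with Python 3.11.15, numpy 2.4.6 and pandas 2.3.3, and bedtools 2.31.1 gave the same overlap counts. Intervals came from scipy 1.17.1 and figures from matplotlib 3.10.9. The merging and the ratios were tested on simulated data. Gene positions, 1 start per gene, promoter sequences and microRNA hairpins came from RefSeq (GRCh38.p14, the assembly of hg38), without exons or UTRs, so neither is told apart here, and no peak sequence is given because no genome was used. Named are the 10 genotype-only regions of highest fold in each class, the genes of runs, the 5 widest shared regions, genes with a genotype-only start and members of 6 gene lists, while the promoters shown and the shared regions of highest fold were chosen after values were seen. Of the named control-only regions, 1 is not reported here. The chromosome, the regions and the lists were chosen with earlier results of these data known. The alternatives, whose effect is given in the closing section, were stricter q-values, equal list sizes, other overlaps, windows, run lengths and start distances, a pseudocount in the background and, added after seeing the data, a fold of at least 4, positions above 26 Mb alone and windows with a background ratio of at least 1.6.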

Additional observations from a re-analysis of the deposited data

How the results depend on the processing

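With a −log10 q of at least 5 in both lists, 33.3% of chromosome 13 regions were knockout-only and 5.81% control-only. Elsewhere 21.4% were knockout-only, so the excess was 11.9 percentage points in place of 9.82. Strong regions then numbered 12 knockout-only (5 of them among the original 19) and 2 control-only, runs numbered 21 and 1, and control-only starts 2. Of the 13 knockout-only starts at that limit, 8 were among the original 15. Others, such as those of GJA3 and IL17D, had a shared region without the limit. With lists of equal size the shares were 26.1% and 14.02%. The knockout-only share elsewhere was then 16.3%, an excess of 9.79 percentage points. With a fold of at least 4, chosen after seeing the data, the knockout-only share was 24.3%, and its excess over other chromosomes was 6.25 percentage points in place of 9.82. Restricting strong regions to the upper 25% left 2 knockout-only and 1 control-only. Runs of at least 4 regions numbered 14 and 3. A pseudocount of 1 gave a relative background of 1.42 in place of 1.33. With 10 Mb windows, knockout-only regions outnumbered control-only ones in 9 of 11, and with 2 kb around starts 8 starts were control-only. Of 59 recomputed values, 41 moved within their limit and 18 moved by more, given above. The limit was the counting error for shares and their differences, a fixed margin for the background ratio and 1.5 times for counts. A change of sign was looked for only in the difference from other chromosomes, and none was found. No paired analysis was possible because each genotype had 1 peak list, and for the same reason no replicate could be left out. The depth of the libraries is unknown, so it cannot be said which weak peaks were within reach of either list.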
